A study of Mus musculus with 16 samples.

Results

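Monoubiquitylated histone H2B (H2Bub1) is a mark of transcribed gene bodies, and the peaks described here are the exception: H2Bub1 peaks that lay away from the genes annotated in GENCODE M21. They were selected on the measured peak calls, as the peaks of the 4 deposited H2Bub1 lists on the 19 autosomes with at least 5 kb between the peak and every GENCODE M21 gene record of any type, non-coding genes and pseudogenes included. They are called distal peaks below. There were 4530 of them among 138512 H2Bub1 peaks: 1531 of 40742 autosomal peaks in wild-type (WT) mouse embryonic stem cells (mESCs), 2691 of 47869 in mESCs lacking Atxn7l3 (KO), 37 of 19578 in WT mouse embryonic fibroblasts (MEFs) and 271 of 28097 in KO MEFs.

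The WT cells were Atxn7l3+/+ and the KO cells Atxn7l3-/-, all of the mixed strain DBA/2 x C57BL/6. The mESCs had been derived from blastocysts and grown with LIF and 2 kinase inhibitors, and the MEFs had been grown from E10.5 embryos without head and gut. KO embryos came from crosses of heterozygous mice, and the null allele is constitutive. Sequencing of immunoprecipitated chromatin (ChIP-seq) used antibodies to H2Bub1 and to RPB1, the largest subunit of RNA polymerase II (Pol II), and gave 1 library per group. Without replicates no difference below could be set against replicate error, and none was tested. Intervals are exact 95% intervals that cover counting error only, and the read depth of the lists is unknown. Over the targeted gene Atxn7l3 itself (chr11:102289300-102296631, minus strand), Pol II peaks held 50.1% of the gene for WT mESCs, 30.4% for KO mESCs, 60.8% for WT MEFs and 58.3% for KO MEFs. H2Bub1 peaks held 100%, 62.5%, 22.0% and 65.3% of it in the same order. Over exons 2 to 12 (chr11:102291898-102295059, numbered on the transcript Atxn7l3-201), the part that loxP sites flanked in the targeting construct, H2Bub1 peaks held 100% for WT mESCs and 13.0% for KO mESCs, but 21.6% for WT MEFs and 19.6% for KO MEFs. Pol II peaks held 20.75% (WT) and 11.9% (KO) of these exons for mESCs and 19.3% (WT) and 10.9% (KO) for MEFs. A Pol II peak lay at the promoters of 15 and 13 of 20 pluripotency genes in WT and KO mESCs and of 4 and 5 in WT and KO MEFs. Of 20 mesenchymal genes, mESCs had it at 3 (WT) and 1 (KO) and MEFs at 17 (WT) and 16 (KO).

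The ubiquitin on H2B is placed by the RNF20/RNF40 ligase, which travels with elongating Pol II, and it is removed by deubiquitylases that include USP22 in the SAGA coactivator complex. ATXN7L3 is the adaptor that these enzymes need for activity. Outside genes, Pol II also transcribes enhancers and unannotated non-coding RNAs, and clusters of enhancers that drive the pluripotency programme of mESCs are among the best described regions of this kind.

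A set of 7 distal regions shows what the peaks look like at the level of sequence. Each stretch below is the plus strand of mm10 (GRCm38.p6), 300 bases around the strongest Pol II summit of the same cells inside the H2Bub1 peak or, for the region with no Pol II peak, around its centre. CG dinucleotides, the sites of DNA methylation that are dense at many promoters, are in capitals. The region near Klf4 was taken because it carries strong Pol II, chosen after its values had been seen, and the others are the widest region, the strongest, a region present in all 4 lists and regions with H2Bub1 in KO cells next to Ppp1r12a, Wnt10a and Actb.
Klf4 3′ region, WT mESCs, chr4:55478564-55478863: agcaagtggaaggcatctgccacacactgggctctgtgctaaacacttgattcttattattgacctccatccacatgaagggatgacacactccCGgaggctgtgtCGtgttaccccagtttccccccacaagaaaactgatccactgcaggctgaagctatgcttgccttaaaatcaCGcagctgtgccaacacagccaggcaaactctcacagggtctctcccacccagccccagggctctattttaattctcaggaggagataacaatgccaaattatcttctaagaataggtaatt
widest region, KO mESCs, chr5:33535329-33535628: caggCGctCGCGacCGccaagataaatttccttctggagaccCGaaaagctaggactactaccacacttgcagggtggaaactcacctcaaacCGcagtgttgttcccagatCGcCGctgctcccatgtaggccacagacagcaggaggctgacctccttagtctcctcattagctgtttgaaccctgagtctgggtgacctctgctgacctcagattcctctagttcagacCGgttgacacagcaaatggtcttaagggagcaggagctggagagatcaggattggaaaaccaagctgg
strongest region, WT mESCs, chr7:107222159-107222458: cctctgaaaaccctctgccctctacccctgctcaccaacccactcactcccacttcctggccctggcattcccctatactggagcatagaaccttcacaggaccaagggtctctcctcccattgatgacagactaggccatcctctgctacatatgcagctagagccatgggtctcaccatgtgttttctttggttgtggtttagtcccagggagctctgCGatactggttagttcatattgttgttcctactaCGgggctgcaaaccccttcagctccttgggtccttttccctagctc
Ppp1r12a 3′ region, KO mESCs, chr10:108294497-108294796: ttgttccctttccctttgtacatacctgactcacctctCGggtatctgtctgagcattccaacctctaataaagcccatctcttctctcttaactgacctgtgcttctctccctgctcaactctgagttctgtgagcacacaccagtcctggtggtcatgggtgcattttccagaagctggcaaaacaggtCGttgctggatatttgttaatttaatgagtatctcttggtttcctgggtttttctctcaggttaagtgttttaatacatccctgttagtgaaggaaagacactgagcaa
region in all 4 lists, KO MEFs, chr8:19979945-19980244: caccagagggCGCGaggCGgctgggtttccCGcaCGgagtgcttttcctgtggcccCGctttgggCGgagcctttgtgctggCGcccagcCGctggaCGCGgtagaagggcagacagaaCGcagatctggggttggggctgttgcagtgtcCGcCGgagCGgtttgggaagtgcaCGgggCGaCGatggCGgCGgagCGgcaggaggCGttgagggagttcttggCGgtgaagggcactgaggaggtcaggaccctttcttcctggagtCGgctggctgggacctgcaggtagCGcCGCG
Wnt10a 3′ region, KO MEFs, chr1:74816926-74817225: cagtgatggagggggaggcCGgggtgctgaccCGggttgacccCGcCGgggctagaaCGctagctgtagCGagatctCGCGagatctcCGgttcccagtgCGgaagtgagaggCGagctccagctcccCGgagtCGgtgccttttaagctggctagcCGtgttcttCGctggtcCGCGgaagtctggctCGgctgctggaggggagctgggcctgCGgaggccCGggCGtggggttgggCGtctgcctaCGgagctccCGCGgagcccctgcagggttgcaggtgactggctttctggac
Actb 5′ region, KO MEFs, chr5:142929221-142929520: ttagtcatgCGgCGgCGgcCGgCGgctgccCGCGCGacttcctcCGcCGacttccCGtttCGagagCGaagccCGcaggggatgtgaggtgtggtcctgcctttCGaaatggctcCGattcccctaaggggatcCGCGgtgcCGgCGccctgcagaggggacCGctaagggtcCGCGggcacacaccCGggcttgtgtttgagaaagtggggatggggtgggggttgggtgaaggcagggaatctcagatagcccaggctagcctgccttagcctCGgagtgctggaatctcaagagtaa

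The stretches differed in CG content. The 3 taken at KO MEF summits held 27, 25 and 25 CG dinucleotides and had a GC content of 67.7%, 68.0% and 64.3%. Of their regions, that on chromosome 8 has H2Bub1 and Pol II in all 4 lists, and those near Wnt10a and Actb also have H2Bub1 in KO mESCs. The mESC stretches held 3 near Klf4, 9 in the widest region, 2 in the strongest and 2 near Ppp1r12a, with a GC content of 44.3% to 53.7%. The strongest region was made wholly of annotated repeats over these 300 bases.

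Distal peaks were a small part of every list, and a larger part in mESCs than in MEFs. They made up 3.76% (3.57 to 3.95) of autosomal H2Bub1 peaks for WT mESCs, 5.62% (5.42 to 5.83) for KO mESCs, 0.189% (0.133 to 0.260) for WT MEFs and 0.965% (0.853 to 1.09) for KO MEFs. The lists of the 2 cell types differed far more outside genes than within them. WT mESCs had 41.4 distal peaks for each one in WT MEFs, against 2.08 for all autosomal peaks, and the corresponding ratios were 9.93 and 1.70 between the KO lists. The lists ended at unlike folds: the 10th percentile over all autosomal peaks was 2.445 for WT mESCs and 2.756 for WT MEFs. It was 2.294 for KO mESCs and 1.984 for KO MEFs. With a fold of at least 3 in every list, 129 distal peaks remained in WT mESCs and 18 in WT MEFs, and 141 and 10 in the KO lists. The WT contrast was thus smaller at a common fold, and no longer larger than the KO one. In total length the distal peaks covered 1344 kb for WT mESCs, 3694 kb for KO mESCs, 27.6 kb for WT MEFs and 432 kb for KO MEFs.

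More distal peaks were listed in KO than in WT cells, and over the full lists the excess was larger than that of peaks over genes. The KO list held 1.76 times the WT number in mESCs and 7.32 times in MEFs, against 1.15 and 1.41 times for peaks that overlap a gene. With each pair of lists cut to equal length the ratios were 1.23 and 3.86, and with protein-coding records alone 1.71 and 3.28. Covered length was 2.75 times higher in KO mESCs and 15.6 times higher in KO MEFs, against 2.08 and 4.58 times over genes. The KO lists also reached down to weaker peaks: the 10th percentile of fold enrichment over genes was 2.45 (WT) and 2.30 (KO) for mESCs, and 2.76 (WT) and 1.99 (KO) for MEFs. Among peaks with a fold of at least 3 in every list, the mESC lists held 129 (WT) and 141 (KO) distal peaks, a ratio of 1.09, and the MEF lists 18 (WT) and 10 (KO), a ratio of 0.556. In mESCs nearly all of the excess in number lay under that fold. In MEFs the order turned around above it, on 18 and 10 peaks. The limit also cut the KO MEF list more than the WT one over genes. There the median fold was 3.09 for 19397 WT peaks, while the upper quartile was 3.07 for 27409 KO peaks. A limit on significance did not remove the excess: where the -log10 q reached 3, the ratio of numbers was 2.68 in mESCs (75 and 201 peaks) and 9.20 in MEFs (5 and 46). Over genes 5471 (WT) and 10329 (KO) mESC peaks reached that limit, and 1328 (WT) and 11285 (KO) MEF peaks. The MEF excess was thus large over genes as well at that limit, and the distal one rests on 5 WT peaks. Covered length above the fold of 3 was still 2.06 times higher in KO mESCs and 2.23 times higher in KO MEFs.

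Coverage was lower the farther the bases lay from genes in every list. Of all bases inside gene records, H2Bub1 peaks covered 5.73% for WT mESCs, 11.8% for KO mESCs, 4.08% for WT MEFs and 18.3% for KO MEFs. In the 983.2 Mb that lie more than 5 kb from a gene, 41.0% of the autosomal bases, they covered 0.151%, 0.454%, 0.00422% and 0.0840%. Coverage over genes was thus 38.0 and 25.9 times that outside in WT and KO mESCs, and 968.5 and 218.4 times in WT and KO MEFs. Beyond 100 kb it was 0.00789% and 0.0254% in WT and KO mESCs and 0.000369% and 0.000738% in WT and KO MEFs. KO exceeded WT in each distance class in both cell types. Not all of this coverage came from distal peaks: for KO MEFs only 52.3% of it did, and the rest were the far ends of wide peaks that began nearer to a gene, against 90.8% for WT mESCs, 82.8% for KO mESCs and 66.7% for WT MEFs.

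**Figure D1:**
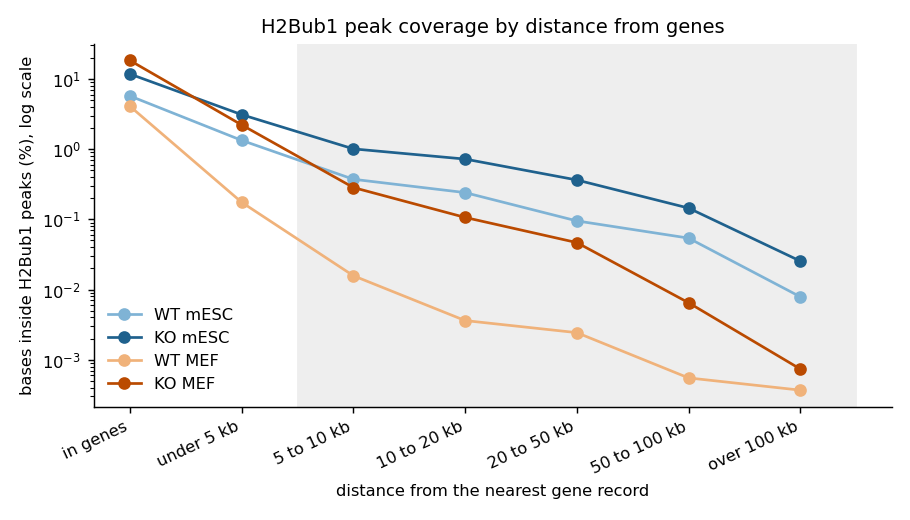
Share of bases inside H2Bub1 peaks (percent, log scale) by distance from the nearest gene record, 1 line per peak list, with the space of the distal peaks shaded. Each line falls with distance, and inside genes KO MEFs are highest at 18.3% while beyond 5 kb KO mESCs are highest.

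Distal peaks were narrower and slightly weaker than peaks over genes. Their median width was 621 bp (587 to 654) for WT mESCs, 883 bp (857 to 919) for KO mESCs, 534 bp (506 to 762) for WT MEFs and 1101 bp (949 to 1248) for KO MEFs. Peaks over genes had medians of 996, 1454, 1326 and 2896 bp. The fold enrichment is the linear ratio of read pileup to the background used in peak calling, as an average across the peak. Its median was 2.58 (2.58 to 2.60) for WT mESCs, 2.44 (2.43 to 2.45) for KO mESCs, 2.98 (2.74 to 3.17) for WT MEFs and 2.13 (2.09 to 2.16) for KO MEFs. Over genes the medians were 2.70, 2.58, 3.09 and 2.33. Distal peaks were thus wider and lower in KO than in WT in both cell types, and so were the peaks over genes. The highest distal fold was 6.37, 5.15, 4.13 and 3.94 in the same order of lists, and peaks over genes reached 14.8, 10.51, 7.70 and 10.8. A -log10 q of at least 3 was reached by 4.90%, 7.47%, 13.5% and 16.97% of distal peaks, against 14.5%, 23.9%, 6.85% and 41.2% of peaks over genes. The WT MEF share is 5 of 37 peaks.

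**Figure D2:**
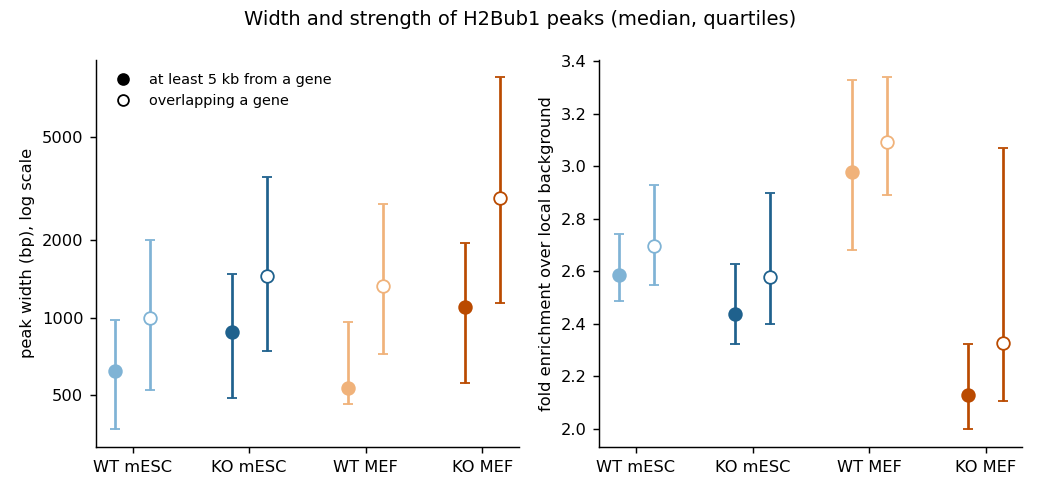
Median and quartiles of peak width (bp, log scale, left) and of fold enrichment over local background (right) for distal peaks (filled) and peaks overlapping a gene (open) in the 4 H2Bub1 lists. Distal peaks have the smaller median in every list, and KO MEFs have the widest and weakest distal peaks, at 1101 bp and a fold of 2.13.

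The peaks next to the 5 kb limit are given here as a description of the rule. In WT mESCs the 3 distal peaks nearest to a gene, at 5009, 5013 and 5021 bp, had folds of 2.73, 2.60 and 2.40, and the 3 peaks that just missed, at 4987, 4985 and 4982 bp, had folds of 2.39, 2.55 and 2.75. In KO mESCs the folds were 2.101 to 2.33 inside and 2.33 to 2.48 outside. In WT MEFs the nearest peak inside lay at 5002 bp with a fold of 2.68 and the nearest outside at 4557 bp with 2.84, and in KO MEFs at 5048 bp with 1.81 and at 4917 bp with 2.37.

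Distal peaks recurred less often between genotypes than H2Bub1 peaks did in general. Of the WT mESC distal peaks, 38.2% (35.8 to 40.7) were overlapped by at least 1 bp of any KO mESC H2Bub1 peak, against 75.8% of all autosomal peaks of that list. Of the KO mESC distal peaks, 16.5% (15.1 to 17.96) were overlapped by a WT peak, against 43.3%. In MEFs 19 of 37 WT distal peaks, or 51.4% (34.4 to 68.1), were overlapped in KO, against 94.9%, and 5 of 271 KO distal peaks, or 1.85% (0.602 to 4.25), were overlapped in WT, against 27.2%. The overlap was low in both directions and lowest from KO to WT in MEFs. Distal peaks are narrower than the other peaks, and the part of width in these shares was not tested.

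A WT distal peak found again in KO cells often lay in a longer KO peak. In mESCs 585 WT distal peaks were overlapped in KO, 498 of them by KO distal peaks and 87 only by KO peaks that came closer than 5 kb to a gene. In MEFs 14 of the 19 were overlapped only by KO peaks that came closer than 5 kb to a gene. One example lies 5′ of Ide, the gene of insulin-degrading enzyme, where WT MEF distal peaks at chr19:37345348-37347159 and at chr19:37348357-37349261 (folds 2.90 and 3.69) sat inside a KO MEF peak that ran from 37330345 to 37357359 (fold 3.69) and inside a KO mESC peak from 37328821 to 37357496 (fold 3.32). When overlapping distal peaks were merged within a cell type, mESCs had 430 regions with both genotypes, 1033 with WT alone and 2257 with KO alone. In MEFs 5 regions had both genotypes, 32 WT alone and 266 KO alone. In the 430 shared mESC regions the KO peaks were longer in 341, or 79.3% (75.2 to 83.0), with a summed length of 1277 kb against 619 kb. Their fold hardly differed, with a median log2 KO/WT ratio of -0.04 (-0.07 to -0.03).

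Few distal regions were common to the 2 cell types. Only 0.588% (0.269 to 1.11) of WT mESC distal peaks were overlapped by a WT MEF H2Bub1 peak, 9 of 1531, against 28.6% of all peaks of that list, and 4.24% (3.51 to 5.07) of KO mESC distal peaks by a KO MEF peak, against 55.6%. In the other direction the shares were 24.3% (11.8 to 41.2), 9 of 37, for WT MEFs, against 51.9%, and 28.4% (23.1 to 34.2) for KO MEFs, against 51.9% there too. Over the 4 lists the distal peaks merged into 3923 regions. Of these 3438 (87.6%) had a distal peak in 1 list, 453 in 2, 28 in 3 and 4 in all 4, and 85 regions had distal peaks in both cell types.

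Pol II lay at a minority of the listed distal H2Bub1 peaks, at a smaller share in KO than in WT mESCs and a larger share in KO than in WT MEFs. A Pol II peak of the same cells overlapped 251 distal peaks in WT mESCs, or 16.4% (14.6 to 18.3), and 258 in KO mESCs, or 9.59% (8.50 to 10.8). It overlapped 5 in WT MEFs, or 13.5% (4.54 to 28.8), and 109 in KO MEFs, or 40.2% (34.3 to 46.3). For all autosomal H2Bub1 peaks the shares were 20.6%, 15.6%, 29.7% and 38.6%, so the KO MEF distal peaks were near the share of their whole list and the mESC distal peaks were below theirs. The WT MEF share rests on 37 peaks. With a minimum distance of 1 kb it became 42.9% (98 peaks), against 40.9% in KO MEFs, so the order of the MEF lists depends on the distance chosen. Of H2Bub1 peaks outside genes but less than 5 kb away, 27.7% had Pol II for WT mESCs, 11.7% for KO mESCs, 69.4% for WT MEFs (144 peaks) and 43.4% for KO MEFs. The share also depends on the strength of the peaks: where the -log10 q reached 3 it was 57.3% for WT mESCs, 39.3% for KO mESCs, 0% for WT MEFs (5 peaks) and 69.6% for KO MEFs, so that in 2 lists it was then a majority. A WT MEF Pol II peak overlapped 36.5% (30.8 to 42.6) of KO MEF distal peaks, against 40.75% of KO MEF peaks over genes, while a WT MEF H2Bub1 peak overlapped 1.85% of them. The Pol II lists were of unlike length, with 16925 (WT) and 11632 (KO) autosomal peaks for mESCs and 44890 and 31552 for MEFs. With the mESC Pol II lists exchanged, KO Pol II overlapped 9.01% of WT distal peaks and WT Pol II 11.5% of KO distal peaks. Over genes these shares were 15.9% and 18.8%. The part of list length in the Pol II shares was not tested.

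**Figure D3:**
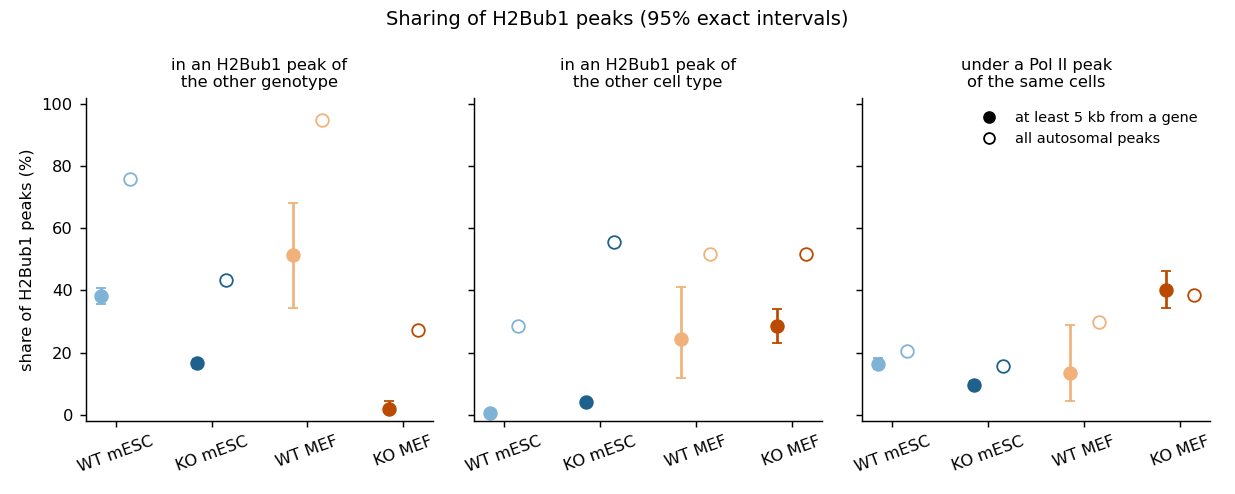
Share (percent) of distal H2Bub1 peaks (filled) and of all autosomal H2Bub1 peaks (open) overlapped by an H2Bub1 peak of the other genotype, by one of the other cell type and by a Pol II peak of the same cells, with exact 95% intervals. Distal peaks lie lower in each panel and list except for Pol II in KO MEFs, at 40.2% against 38.6%.

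Distal peaks with Pol II were wider than those without and, in every list but KO MEFs, recurred more often. In WT mESCs the median width was 913 bp (779 to 1035) with Pol II and 584.5 bp (557 to 621) without, in KO mESCs 1822 bp (1505 to 2243) and 856 bp (815 to 883), and in KO MEFs 1462 bp (1230 to 1915) and 878.5 bp (776 to 1011). In WT mESCs 78.1% (72.5 to 83.0) of distal peaks with Pol II were overlapped by a KO H2Bub1 peak, against 30.4% (27.9 to 33.0) of those without. In KO mESCs 43.4% (37.3 to 49.7) and 13.7% (12.3 to 15.1) were overlapped in WT. In WT MEFs all 5 with Pol II and 43.75% (26.4 to 62.3) of the 32 without were overlapped in KO. KO MEFs showed no such gap, at 1.84% and 1.85%. The median fold was higher with Pol II in 3 lists, 2.78 against 2.56 for WT mESCs, 2.68 against 2.42 for KO mESCs and 2.18 against 2.099 for KO MEFs, and lower for WT MEFs, 2.89 against 3.00. A wide peak is more likely to meet another peak, so width is tied up with these shares.

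Seen from the side of Pol II, most distal Pol II peaks had no H2Bub1 peak in 3 of the 4 lists, KO mESCs being the exception. WT mESCs had 1124 Pol II peaks at least 5 kb from a gene, of which 28.6% (25.9 to 31.3) were overlapped by H2Bub1, and KO mESCs had 707, of which 59.4% (55.7 to 63.0) were. WT MEFs had 2775, of which 5, or 0.180% (0.0585 to 0.420), were overlapped, and KO MEFs had 1399, of which 13.4% (11.7 to 15.3) were. Pol II peaks over genes were overlapped far more often, at 72.9%, 89.4%, 23.3% and 77.2%. H2Bub1 was therefore listed at a larger share of Pol II peaks in KO than in WT in both cell types, outside genes as over genes. The Pol II peaks inside distal H2Bub1 peaks had a median summit fold of 3.85 (3.73 to 4.01) for WT mESCs, 3.94 (3.76 to 4.11) for KO mESCs and 5.07 (4.36 to 5.48) for KO MEFs, against 3.56, 3.81 and 3.76 for all distal Pol II peaks.

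Pol II summits inside distal peaks were richer in CG dinucleotides in KO MEFs than in mESCs. In 300 bp windows around Pol II summits inside distal peaks, at least 10 CG dinucleotides were found in 46 of 109 windows for KO MEFs, or 42.2% (32.8 to 52.0), in 18.3% (13.7 to 23.7) for WT mESCs and in 22.1% (17.2 to 27.7) for KO mESCs. Windows at the centre of distal peaks without Pol II reached it in 1.85% (0.384 to 5.32), 5.00% (3.87 to 6.34) and 5.30% (4.44 to 6.27), and windows spread evenly over the same gene-free space in 1.28%. In WT MEFs 1 of 5 Pol II windows, or 20% (0.505 to 71.6), and 4 of 32 windows without Pol II, or 12.5% (3.51 to 29.0), reached it, and at these numbers WT MEFs cannot be told apart from KO MEFs at the summits. The CG-rich stretches near Wnt10a and Actb printed above are of this kind. The 4 motifs searched on both strands were TGANTCA (the AP-1 site), ATTTGCAT (the octamer), TATAAA (the TATA box) and CACGTG (the E-box). TGANTCA was in 9.56% of Pol II windows for WT mESCs, 12.8% for KO mESCs and 11.9% for KO MEFs, against 8.97% of windows over the gene-free space. CACGTG was in 9.16%, 7.36% and 5.50%, against 2.53%, and in 4.84%, 4.07% and 3.09% of windows without Pol II in the same lists. TATAAA was in 8.76%, 8.91% and 6.42%, against 29.6%, and ATTTGCAT in under 1% of each, against 3.01%. A match is a description of the window only, and windows of higher GC content hold AT-rich motifs less often by composition. CACGTG itself holds a CG, and the part of CG content in its shares was not tested. Distal peaks as a whole had a median GC content of 53.2%, 50.7%, 46.0% and 47.7% in WT mESCs, KO mESCs, WT MEFs and KO MEFs, against 40.3% for 1000 bp tiles of the gene-free space. Annotated repeats took a median of 12.5%, 17.7%, 29.7% and 23.0% of the peak, against 29.6%. Over all bases repeats made up 20.2%, 24.5%, 32.7% and 28.7% of the distal peaks, against 39.6% of the space.

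Distal H2Bub1 also lay near pluripotency genes in mESCs. On the 3′ side of Klf4, a pluripotency factor gene, the WT mESC peak at chr4:55476258-55481443, 45699 bp away, had a fold of 3.33 and Pol II of 11.3, the KO mESC peak inside it (chr4:55478025-55481390) a fold of 2.75 and Pol II of 9.80, and MEFs had neither. KO mESCs had 2 further peaks on that side, at chr4:55474452-55474808 with a fold of 2.94 and Pol II of 8.87, and at chr4:55486135-55486571 with a fold of 2.44 and no Pol II. KO MEFs instead had a peak on the 5′ side of Klf4, 118524 bp away at chr4:55650991-55653389, with a fold of 2.31 and Pol II of 14.8. WT MEFs had Pol II there, at a fold of 17.7, and no H2Bub1 peak.

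Genes of the Nodal pathway and other pluripotency genes also had distal H2Bub1 nearby. Upstream of Lefty1, which encodes a Nodal antagonist, the WT mESC peak chr1:180920444-180926334 had a fold of 3.09 and Pol II of 4.41, and KO mESCs kept 1910 of its 5891 bp in a peak of fold 2.52 without Pol II. Upstream of the neighbouring Lefty2 the order was the reverse: KO mESCs had 1 peak of 6803 bp (chr1:180880792-180887594, fold 3.13) and WT mESCs covered 1539 bp of it with a highest fold of 2.66, both without Pol II. Next to Fgf4, a growth factor gene of the same cells, both genotypes had H2Bub1 at chr7:144870903-144873719, with folds of 2.43 and 2.62 in WT and KO. An upstream enhancer of Nanog, the gene of another pluripotency factor, had H2Bub1 in KO mESCs alone, chr6:122661703-122663798 with a fold of 2.58, while Pol II was called there in WT alone, with a fold of 3.77. Upstream of Pou5f1, which encodes OCT4, KO mESCs alone had a peak, chr17:35490177-35490716, with a fold of 2.71.

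Counted over the whole list, 12 of 20 pluripotency genes were the nearest protein-coding gene of at least 1 distal peak in WT mESCs (18 peaks) and 17 of 20 in KO mESCs (42 peaks), against 4.93% and 7.26% of all 20807 autosomal protein-coding genes. In MEFs none was in WT and 1, Klf4, in KO. Of 20 mesenchymal genes, 2 were for WT mESCs, 3 for KO mESCs, none for WT MEFs and 2 for KO MEFs, against 0.139% and 0.971% of all genes in the MEF lists. The 2 in KO MEFs were the genes of both chains of type I collagen. On the 5′ side of Col1a1, 5642 bp away, the KO MEF peak chr11:94928569-94930581 had a fold of 1.91 with Pol II of 9.68, against Pol II of 12.0 and no H2Bub1 peak in WT MEFs. KO mESCs had H2Bub1 there too, with a fold of 2.11 over 934 bp and no Pol II, and Col1a1 was also the nearest protein-coding gene of other distal peaks in both mESC lists. On the 5′ side of Col1a2, 85210 bp away, the peak chr6:4417063-4419603 had a fold of 2.14 with Pol II of 4.61, against Pol II of 9.06 and no H2Bub1 peak in WT MEFs.

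Distal peaks fell on annotated regulatory elements more often than the gene-free space at large. RefSeq functional elements, which include enhancers tested in transgenic embryos (VISTA) and enhancer clusters targeted by CRISPR interference, overlapped 24 distal peaks for WT mESCs, or 1.57% (1.01 to 2.32), 43 for KO mESCs, or 1.60% (1.16 to 2.15), and 7 for KO MEFs, or 2.58% (1.04 to 5.25). They overlapped 0.103% of 1000 bp tiles of the same space. All 7 in KO MEFs had Pol II. In WT MEFs 0 of 37 overlapped one, which allows a share of up to 8.11% by the limit of 3 counts (9.49% by the exact interval). The clusters next to Ranbp17 and Mir290, the latter a microRNA locus of pluripotent cells, were covered in both mESC lists. The cluster next to Med13l, a Mediator subunit gene, had 7 distal peaks in KO mESCs, which covered 5783 of its 19598 bp (chr5:118432886-118452483) with a highest fold of 2.66, and no H2Bub1 peak in WT mESCs, while Pol II was called there in both, at 4.44 in WT and 3.75 in KO. At Ranbp17 the KO peak chr11:33532628-33545232 (12605 bp, fold 2.88, Pol II 13.0) spanned WT peaks that covered 5105 bp of it with a highest fold of 3.78 and Pol II of 12.1. At Mir290 the KO peak chr7:3192209-3200673 covered 8465 bp with a fold of 2.87 and Pol II of 9.46, while WT covered 233 bp of it with a fold of 2.72 and Pol II of 4.87. That peak lay only partly in the cluster (chr7:3199611-3215602). Within the cluster H2Bub1 peaks covered 5945 bp in KO and 1392 bp in WT, with Pol II of 9.46 and 7.72. A KO peak of 5756 bp (chr2:154416565-154422320, fold 3.35), of which 1898 bp were covered in WT (fold 3.11), reached into the cluster next to Cbfa2t2, a transcriptional co-repressor gene. Within the cluster (chr2:154419404-154431952) H2Bub1 peaks covered 6216 bp in KO and 1532 bp in WT. The cluster next to Sall1, a zinc finger factor gene, had 1418 bp in WT (chr8:89013377-89014794, fold 2.99) of which 1092 bp were covered in KO (fold 2.50). No Pol II peak overlapped that stretch in either list, while Pol II of 3.95 was called elsewhere in the cluster in WT and none in KO.

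At the cluster next to Mcl1, the gene of an anti-apoptotic protein, 3 lists had H2Bub1. Over chr3:95651283-95653500 the fold was 2.84 for WT mESCs, 3.86 for KO mESCs and 2.04 for KO MEFs, and Pol II reached 6.15, 6.11 and 6.81. WT MEFs had the highest Pol II fold there, 10.7, and no H2Bub1 peak. A pair of VISTA enhancers were covered by peaks above 10 kb in KO mESCs. At mm1527 the KO peak chr4:106853657-106866506 had a fold of 3.17 and WT covered 2216 of its 12850 bp, and at mm1499 the KO peak chr17:66475070-66486365 had a fold of 3.39 and WT covered 2235 of its 11296 bp.

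**Figure D4:**
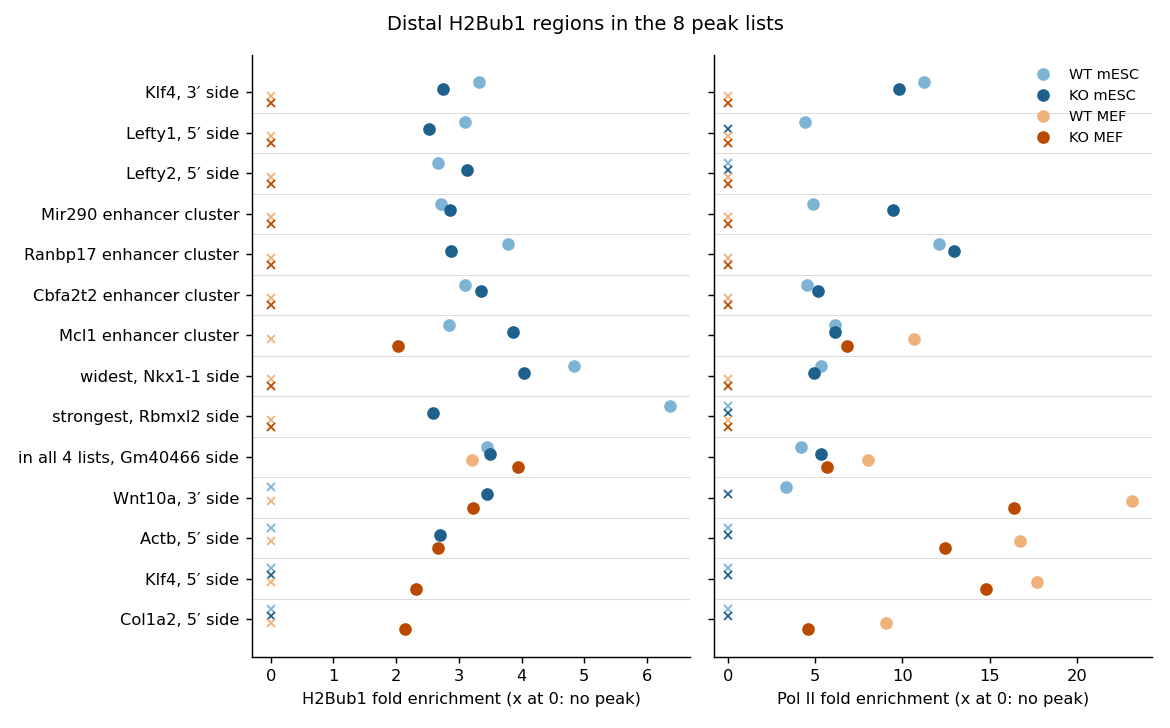
H2Bub1 fold enrichment (left) and Pol II fold enrichment (right) of 14 distal regions named in the text, 1 point per peak list, with a cross at 0 where the list has no peak. The regions at the top have H2Bub1 in both mESC lists, and the regions at the bottom have Pol II in both MEF lists and H2Bub1 in KO MEFs.

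A second annotation held genes under part of the distal peaks. RefSeq gene records, which include predicted transcripts, overlapped 21.9% (19.8 to 24.0) of them for WT mESCs, 23.3% (21.7 to 24.9) for KO mESCs, 21.6% (9.83 to 38.2) for WT MEFs and 28.8% (23.5 to 34.6) for KO MEFs, against 9.13% of tiles of the gene-free space. In mESCs most of these records were long non-coding RNAs, 239 of 335 in WT and 489 of 626 in KO. In KO MEFs 46 of 78 distal peaks in a RefSeq record were in a protein-coding one. Such peaks are outside GENCODE M21 and inside a gene of another annotation, and they remain counted as distal here.

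The strongest and widest distal regions differed between lists. The 3 highest folds in WT mESCs lay side by side, 9161 to 13622 bp from the 3′ end of Rbmxl2, an RNA-binding protein gene of the germ line. Their folds were 6.37 (chr7:107221840-107222778), 6.30 (chr7:107220078-107220602) and 5.93 (chr7:107224539-107225142), against 2.58, 2.90 and 2.38 in KO mESCs, and MEFs had no peak there. No Pol II peak overlapped any of them, and repeats made up 95.3%, 75.2% and 37.2% of their length. In KO mESCs the highest fold, 5.15, was at chr8:20550317-20550883, 5809 bp from the pseudogene Gm21182, where WT mESCs had 4.12, KO MEFs 3.29 and WT MEFs no H2Bub1 peak but Pol II of 10.6. Next came chr5:109844137-109845518, near Gm10416, with a fold of 4.50 in KO and 3.05 in WT mESCs and no Pol II. The third was chr15:100269614-100271949, 3′ of Atf1, a CREB family transcription factor gene, with 4.46 in KO and 3.75 in WT mESCs, and Pol II of 3.66 and 7.72.

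The widest distal peak of all was in KO mESCs, 43544 bp at chr5:33494660-33538203 with a fold of 4.04, 60683 bp from Nkx1-1, a homeobox gene. WT mESCs had a peak of 35476 bp there with a fold of 4.83, and the adjacent chr5:33479552-33493264 carried a further 13713 bp in KO, with folds of 2.70 in KO and 2.78 in WT. Both MEF lists had no peak in either region. Pol II had a fold of 5.31 in WT and 4.93 in KO mESCs at the first. The second widest in WT mESCs, 15478 bp within chr9:40222788-40239367 on the 3′ side of Zfp202, a zinc finger gene, had a fold of 4.09 against 3.63 in KO and no Pol II in any list. The second widest in KO mESCs, 21261 bp within chr17:31816181-31837700, began 6549 bp from Sik1, a salt-inducible kinase gene, with a fold of 3.16, while WT mESCs had 4 separate peaks there of up to 5392 bp. The third in KO mESCs was chr1:86497100-86515318, a peak of 18219 bp that lay 11407 bp away on the 5′ side of Ptma, the prothymosin gene. Its folds were 3.00 for WT mESCs, 2.80 for KO mESCs and 2.15 for KO MEFs, with Pol II in all 4 lists (7.83, 4.20, 18.5 and 10.48 for WT mESCs, KO mESCs, WT MEFs and KO MEFs).

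In KO MEFs the widest distal peak lay 17826 bp on the 5′ side of Actb, the cytoplasmic actin gene, 12461 bp at chr5:142924581-142937041 with a fold of 2.66. Pol II was called there in both MEF lists, at 16.8 in WT and 12.4 in KO, and in neither mESC list, and WT MEFs had no H2Bub1 peak. KO mESCs had 3 narrow H2Bub1 peaks of up to 1495 bp there, with a highest fold of 2.69. The second widest was 10316 bp within chr5:109866712-109877035, near the long non-coding RNA Gm26779 and inside the RefSeq gene AB010352, with a fold of 2.66 and Pol II in both MEF lists (4.93 in WT and 5.48 in KO). Its folds in mESCs were 3.20 in WT and 3.11 in KO. On the 3′ side of Bpgm, a glycolytic mutase gene, KO MEFs had chr6:34514439-34518448 with a fold of 3.25 and no other list had H2Bub1, while WT MEFs had Pol II of 3.98.

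The regions with H2Bub1 in KO and not in WT, and Pol II in both genotypes, numbered 65 in mESCs and 84 in MEFs. Counted as peaks, 64 of 2247 KO mESC distal peaks without WT H2Bub1, or 2.85% (2.20 to 3.62), had Pol II in both genotypes, against 2.02% of all autosomal KO mESC peaks without WT H2Bub1. For KO MEFs the numbers were 81 of 266, or 30.5% (24.98 to 36.4), against 21.5%. In MEFs the 3 with the highest KO fold were the chr8:20550317-20550883 region above, a region on the 3′ side of Wnt10a, a Wnt ligand gene, and chr2:131393111-131395946, 40218 bp from Rnf24, with a fold of 3.10 and Pol II of 4.36 in WT and 4.42 in KO. The Wnt10a region, chr1:74817011-74818453, overlapped the VISTA enhancer mm1017 and had the highest Pol II of the regions named, 23.2 in WT MEFs and 16.4 in KO MEFs. H2Bub1 was called there in both KO lists (3.22 in MEFs and 3.45 in mESCs) and in no WT list. In mESCs the 3 were chr3:103211327-103214969, 32160 bp from Bcas2 (fold 3.41, Pol II 3.54 in WT and 4.14 in KO), chr10:121010957-121011245, 22714 bp from Wif1, the gene of a Wnt inhibitor (3.21, Pol II 4.44 and 3.35), and chr10:108294348-108295283, 9872 bp 3′ of Ppp1r12a, a myosin phosphatase subunit gene (3.10, Pol II 3.54 and 5.91). None of these 3 had a peak of either kind in MEFs.

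The 4 regions with a distal peak in every list were few and had unlike neighbours. At chr8:19980000-19982977, 18121 bp from the pseudogene Gm40466, folds were 3.46 for WT mESCs, 3.50 for KO mESCs, 3.22 for WT MEFs and 3.94 for KO MEFs, the highest distal fold of that list, and Pol II was present in all 4, from 4.19 for WT mESCs to 8.01 for WT MEFs. The adjacent chr17:17182674-17191145 and chr17:17193346-17201254, near Zfp97 and inside the RefSeq gene Gm38396, had folds of 3.48, 3.00, 3.35 and 3.03 and of 3.43, 3.14, 3.45 and 2.95 in the same order, with no Pol II in any list. KO MEFs had the longest peaks there, 8472 and 7909 bp, against 1742 and 293 bp in WT MEFs. At chr3:5860437-5860948 the folds were 1.61, 1.54, 2.48 and 1.40, without Pol II. The WT MEF list had its highest distal fold, 4.13, at chr2:144779721-144780254 on the 3′ side of Dtd1, where no other list of either kind had a peak, and its second, 3.76, at chr2:84587677-84589640 on the 3′ side of Ctnnd1, inside the longer RefSeq record of that gene, which encodes the adhesion protein p120 catenin.

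Distal peaks lay on either side of genes. The gap to the nearest gene record had a median of 12386 bp for WT mESCs, 13652 bp for KO mESCs, 12049 bp for WT MEFs and 11701 bp for KO MEFs. The 3′ end of that gene faced the peak in 52.6% (50.04 to 55.1), 50.4% (48.5 to 52.3), 45.9% (29.5 to 63.1) and 49.1% (43.0 to 55.2) of cases, against 51.2% of the bases of the gene-free space. No lean towards 3′ ends, where Pol II runs on past genes, was detectable at these numbers for the distal peaks. Peaks at least 1 kb from a gene were on that side in 55.1% (53.2 to 57) of cases for WT mESCs, 52.4% (50.8 to 53.9) for KO mESCs, 63.3% (52.9 to 72.8) for WT MEFs and 58.1% (53.7 to 62.4) for KO MEFs, against 51.1% of points of the matching space. For the nearest protein-coding gene of the distal peaks the shares were 45.9% (43.4 to 48.5) for WT mESCs, 43.2% (41.3 to 45.1) for KO mESCs, 59.5% (42.1 to 75.3) for WT MEFs and 42.4% (36.5 to 48.6) for KO MEFs, against 45.8%. The nearest protein-coding gene itself carried H2Bub1 in 80.7% (78.7 to 82.7) of cases for WT mESCs, 86.2% (84.9 to 87.5) for KO mESCs, 29.7% (15.9 to 47.0) for WT MEFs and 87.1% (82.5 to 90.8) for KO MEFs, against 41.4%, 48.0%, 30.7% and 47.8% of tiles of the gene-free space. In 3 lists distal peaks thus lay next to H2Bub1-bearing genes more often than their surroundings did, and in WT MEFs they did not. Another H2Bub1 peak of the same list lay within 5000 bp of 35.0% (32.6 to 37.5) of distal peaks for WT mESCs, 47.1% (45.2 to 49.0) for KO mESCs, 27.03% (13.8 to 44.1) for WT MEFs and 48.7% (42.6 to 54.8) for KO MEFs. For all other autosomal H2Bub1 peaks the shares were 73.2%, 76.4%, 68.1% and 72.0%, but the rule keeps distal peaks away from genes, where most peaks lie, so nothing is read from this gap. The longest run of distal peaks held 12 at chr9:67565860-67634651 in KO mESCs.

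Chromosome 11 was dense in distal peaks in mESCs and not in MEFs. It held 17.9% (16.0 to 19.9) of them for WT mESCs and 16.2% (14.9 to 17.7) for KO mESCs, against 2.70% (0.0684 to 14.2) for WT MEFs and 5.90% (3.41 to 9.41) for KO MEFs, with 4.29% of the gene-free space. The density was 6.50 distal peaks per Mb in WT and 10.4 in KO mESCs, against 1.34 and 2.40 on the other autosomes, where the highest were 2.32 on chromosome 17 in WT and 3.60 on chromosome 2 in KO. Of all autosomal H2Bub1 peaks, 11.7% and 10.0% in WT and KO mESCs and 7.55% and 7.21% in WT and KO MEFs lay on chromosome 11. The cause of this density was not tested. Without chromosome 11 the KO/WT ratio of distal peak numbers was 1.79 in mESCs and 7.08 in MEFs.

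**Figure D5:**
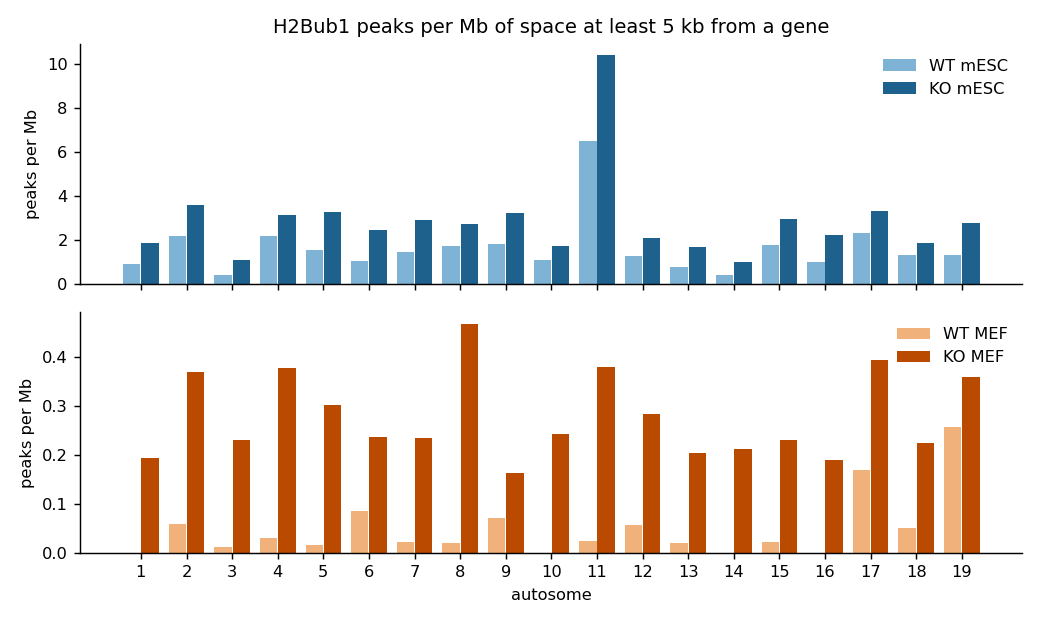
Distal H2Bub1 peaks per Mb of space at least 5 kb from a gene, by autosome, for mESCs (top) and MEFs (bottom, on a smaller scale). Chromosome 11 stands at 6.50 in WT and 10.4 in KO mESCs, and no autosome stands apart in this way in KO MEFs.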

How the data were processed

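The distal peaks, the gene lists and the overlaps were chosen with earlier results of these data known, and what the rule used is described and not tested. Of 16 samples in the labels, the 8 H2Bub1 and Pol II libraries were analysed; the others were not analysed here, and 1 distal region is not reported here. Per the submitters' notes, reads were converted with bcl2fastq 2.17.1.14, aligned to mm10 with Bowtie 1.0.0 and turned into broad (H2Bub1) or narrow (Pol II) peaks with MACS2 2.1.1.20160309, 1 list per library. Control and calling thresholds are not given in the sources used here. The authors normalized H2Bub1 by DESeq2 size factors over long intergenic regions, space that the distal peaks share, and Pol II by all mapped reads. The methods name this step ahead of peak calling, without saying how it was applied to the reads that were called.

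The deposited fold enrichment is a ratio to the background used in peak calling, at the summit for narrow peaks. The series holds input libraries, and whether they supplied that background is not given. The deposited -log10 p and -log10 q come from the authors' peak caller, and the deposited score column was not used. Deeper sequencing lengthens a peak list, so counts compare lists and not amounts of H2Bub1.

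Distances were taken to 51229 autosomal gene records, GENCODE M21, with numpy 2.4.6, pandas 2.3.3 and scipy 1.17.1 under Python 3.11.15 (figures: matplotlib 3.10.9). An overlap needed 1 bp, and a promoter was 1000 bp on either side of a gene's start. Sequences, repeats and the second annotation were RefSeq's for GRCm38.p6. Windows over the gene-free space were the first 300 bp of 1 tile in 10. The 95% intervals are Clopper-Pearson's for shares and exact binomial for medians. Functions were tested on simulated peaks.

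Regions named are, per list, the 3 highest folds and the 3 widest, regions in all 4 lists, and per cell type the 3 KO-only regions with Pol II in both genotypes and the highest KO fold. Genes named are their nearest genes and the listed marker genes, and the enhancer clusters were chosen after their values were seen. The alternatives varied the -log10 q, the length of the lists, the distance, the gene records, peak joining, width and repeats, the overlap and the Pol II threshold. Leaving out chromosome 11 and requiring a fold of at least 3 were added after seeing the data.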

Additional observations from a re-analysis of the deposited data

Results flagged for a closer look

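The share of distal H2Bub1 peaks under a Pol II peak of the same cells moved in opposite directions from WT to KO in the 2 cell types, which is why it is listed here. For mESCs it was 16.4% (WT) and 9.59% (KO), and for MEFs 13.5% (WT) and 40.2% (KO). Within each cell type the exact intervals of the WT and KO shares did not overlap, but with 1 library per group the difference between the cell types was not tested. The WT MEF value counts 5 of 37 peaks. At a minimum distance of 1 kb from genes it was 42.9% of 98 peaks, and the share in KO MEFs was 40.9%, so the opposite movement was not seen at that distance. The KO Pol II lists were shorter than the WT ones, with 11632 against 16925 autosomal peaks in mESCs and 31552 against 44890 in MEFs. The part of list length in these shares was not tested.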

How the results depend on the processing

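The KO lists held more distal peaks than the WT lists under every alternative except a common fold of at least 3 in MEFs. Joining peaks less than 1000 bp apart, leaving out repeat-rich peaks and a stricter Pol II threshold left every ratio within 1.5 times its value and every share within its 95% interval, although without repeat-rich peaks the MEF ratios were 10.2 in number and 20.8 in length. With a -log10 q of at least 3 the KO/WT ratio of numbers in mESCs was 2.68, and that of covered length was 4.25 in mESCs and 47.7 in MEFs. The overlap with the other genotype was then 54.7% for WT mESCs (75 peaks), 14.9% for KO mESCs (201), 0% for WT MEFs (5) and 0% for KO MEFs (46). The overlap with the other cell type was 0%, 8.96% and 0% in WT mESCs, KO mESCs and WT MEFs, and that with Pol II 57.3%, 39.3%, 0% and 69.6% in WT mESCs, KO mESCs, WT MEFs and KO MEFs.

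With pairs of lists cut to equal length the MEF ratio of numbers was 3.86, the overlap with the other genotype 34.4% and 20.3% in WT and KO mESCs, and that with Pol II 12.1% in KO mESCs and 48.9% in KO MEFs. At 1 kb the MEF length ratio was 8.35, the overlap with the other cell type 1.43% and 5.83% in WT and KO mESCs, and that with Pol II 20.3% in WT mESCs and 42.9% in WT MEFs. At 10 kb the overlap of KO mESC peaks with WT was 14.8%. With protein-coding records alone the MEF ratios were 3.28 in number and 6.66 in length. The overlaps with the other genotype were then 46.6%, 20.4%, 83.1% and 10.2% (WT mESCs, KO mESCs, WT MEFs, KO MEFs), those with the other cell type 3.84%, 10.3%, 43.2% and 36.7%, and those with Pol II 19.6%, 11.2% and 28.8% for the first 3.

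For peaks of at least 500 bp the overlap with the other genotype was 43.9% and 19.1% and that with Pol II 19.3% and 11.2% in WT and KO mESCs. Where 50% of the peak had to be covered, these became 32.4% and 6.61%, and 10.4% and 2.82%. The overlap with the other cell type was 3.16% for KO mESCs and 19.6% for KO MEFs, and that with Pol II 19.2% for KO MEFs. Where a peak within 1000 bp sufficed, they were 42.6% and 19.3% for the other genotype and 18.9% and 10.8% for Pol II in mESCs, and 47.2% for Pol II in KO MEFs.

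With a fold of at least 3 in every list the ratio of numbers was 1.09 in mESCs and 0.556 in MEFs, and the MEF length ratio 2.23. The overlap with the other genotype was 34.1%, 22.0% and 20% for WT mESCs, KO mESCs and KO MEFs, that with the other cell type 2.33% for WT mESCs and 40% for KO MEFs, and that with Pol II 49.6%, 41.8% and 70.0% for WT mESCs, KO mESCs and KO MEFs. The causes of these movements were not tested, beyond the smaller or larger sets of peaks given. No paired analysis was possible because each group has 1 library. The read depth is unknown, and the WT MEF list has 37 distal peaks, both of which limit the precision.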
